A study of Mus musculus with 8 samples.

Results

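The genes examined here encode 10 phosphodiesterases that hydrolyse cyclic AMP: Pde4a, Pde4b, Pde4c, Pde4d, Pde7a, Pde7b and Pde8a, whose products are specific for cAMP, and Pde3a, Pde3b and Pde10a, whose products hydrolyse both cAMP and cyclic GMP. They were chosen by gene symbol, with earlier results of these data known, and make up 10 of the 47706 genes listed in the deposited count table. Of these, 9 had enough counts to be among the 16736 genes tested, and Pde4c did not. The cells were primary osteoblasts from the calvaria of neonatal mice, differentiated in culture for 7 days and then given parathyroid hormone (PTH) or vehicle for 24 hours, with 4 samples in each group. Polyadenylated RNA was sequenced, and reads were counted per gene. The sample labels describe the differentiation as adipogenic, whereas the study's methods describe an osteogenic medium, a serum-starved culture and the PTH 1–34 peptide. All 8 titles carry the prefix Con, which is not explained, and neither the mouse strain nor any floxed allele or control virus was given for these cultures in the sources used here. Nothing states that the 4 samples of a group came from separate animals or cultures, so the p-values measure the spread between these samples, which may be technical.

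PTH acts on osteoblasts mainly through a Gs-coupled receptor, PTH1R, which activates adenylyl cyclase and raises cAMP. Cyclic AMP activates protein kinase A and the exchange factors EPAC1 and EPAC2, and phosphodiesterases end the signal by converting it to AMP. Several PDE4 genes are known in other cells as transcriptional targets of the cAMP pathway, and PDE4 long forms are also switched on by protein kinase A, so the family is a standard example of negative feedback.

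The total count per sample was between 33605610 and 56090654, with PTH replicate 2 the lowest and PTH replicate 1 the highest. On the first principal component, which held 62.8% of the variance, the groups separated. Tnfsf11, which encodes RANKL and is a classical PTH target, served as a check of the labels and went from 1.42 ± 0.365 CPM in vehicle to 128 ± 20.01 CPM in PTH (mean ± SD, n = 4), where CPM is the count scaled to a common library size. Osteoblast markers were abundant, with summed levels of 95576 to 107893 CPM in vehicle and 88765 to 128206 CPM in PTH samples. Most of the sum was Col1a1, Col1a2 and Sparc, with means of 44362, 35071 and 16750 CPM in vehicle. None of the 13 osteoblast markers rose by the edgeR quasi-likelihood test, whereas 23.3% of all genes tested did. At an unadjusted p under 0.05, 0 were higher, and by DESeq2 0 were higher. Runx2, Sp7 and Dmp1 fell, 3 of the 13 (23.1%), a share close to the 22.5% of all genes tested that fell. Their log2 fold changes were -0.33, -1.78 and -1.12, and Sp7 went from 103 ± 29.6 to 30.1 ± 3.26 CPM. Adipocyte markers summed to 55.96 to 75.4 CPM in vehicle and 53.5 to 77.8 CPM in PTH samples, and none of the 10 was at 0 in all samples. Chondrocyte markers summed to 317 to 332 CPM in vehicle and 370 to 487 CPM in PTH samples. Acan and Col2a1 were higher among 5 tested (40%, beside 23.3% of all genes tested) and 0 were lower. Endothelial and skeletal muscle markers summed to at most 7.65 and 8.61 CPM in any sample. Of 5 endothelial markers tested Kdr rose and Tek fell (20% each). Of 2 skeletal muscle markers tested Acta1 fell (50%, beside 22.5% of all genes tested). In a bulk sample, fewer cells of a type and less RNA per cell cannot be told apart.

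Of the 9 phosphodiesterase genes tested, 8 were higher after PTH, 0 were lower and Pde4a did not pass the threshold (edgeR quasi-likelihood test, Benjamini-Hochberg adjusted p under 0.05 over all genes tested). Among all 16736 genes tested, 23.3% were higher and 22.5% lower by the same rule, or 45.8% in either direction. No member was lower at an unadjusted p under 0.05 or by DESeq2 either. In each of the 8 genes that rose, all 4 PTH samples lay above all 4 vehicle samples, a pattern found in 21.2% of all genes tested. The log2 fold change was at least 1 in 5 of them, against 7.36% of all genes tested, and 0 members fell by as much, against 3.88% of all genes. The median log2 fold change of the 9 genes was 1.01, beside -0.00 over all genes tested, where the median absolute change was 0.35. Their changes ranged widely, from a log2 fold change of 4.28 for Pde4d to 0.55 for Pde3a among those that rose.

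**Figure D1:**
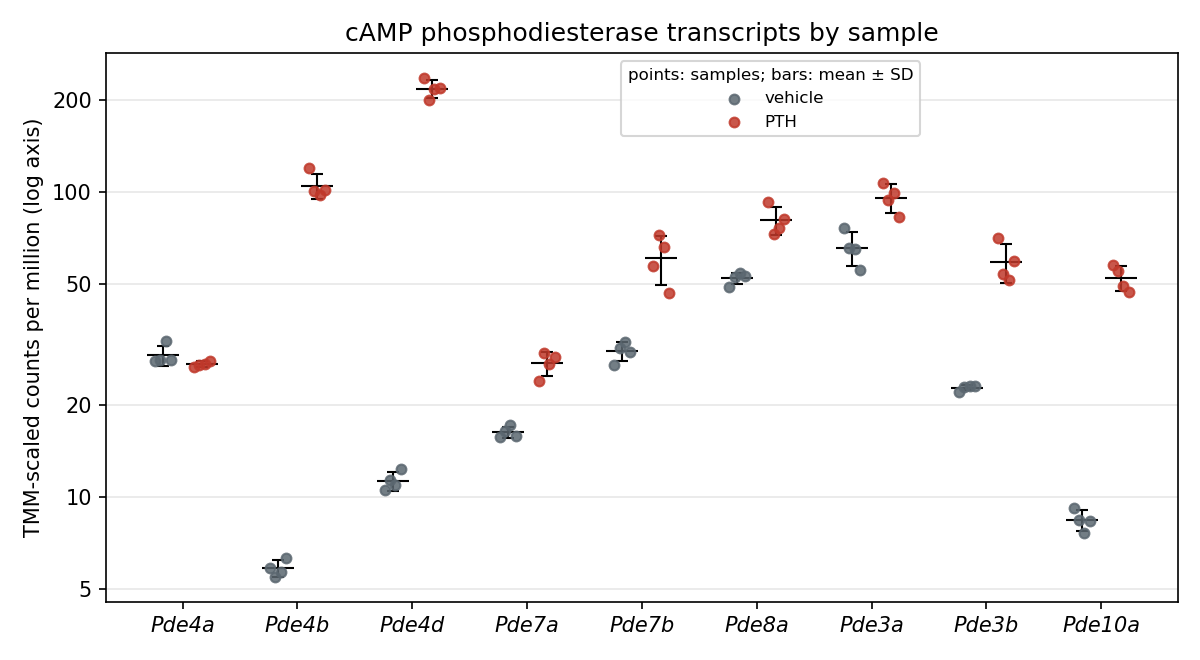
Level of each of the 9 tested phosphodiesterase genes in every sample, in CPM scaled by the TMM method, on a log axis. Grey points are the 4 vehicle samples, red points the 4 PTH samples, and the black bars give the mean ± SD. The PTH points of Pde4b and Pde4d lie between 97.5 and 237 CPM and far above their vehicle points, whereas those of Pde4a lie at nearly the vehicle level.

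Promoter sequence was available for 7 of the 10 genes, as 13 windows of 300 bases that run from 250 bases before to 50 bases after a RefSeq transcript start (GRCm38.p6). Of these, 4 are shown because they belong to the pair of genes with the largest changes, to the gene with the highest level per kb of exon in both groups and to the gene that did not pass the test. Capitals mark the core of the cAMP response element, TGACG or its reverse complement CGTCA, and a window with no capitals does not hold it. The Pde4b window is at chr4:102421305-102421604 (plus strand), the Pde4d window at chr13:108653927-108654226 (plus strand), the Pde8a window at chr7:81213015-81213314 (plus strand) and the Pde4a window at chr9:21183851-21184150 (plus strand).
Pde4b: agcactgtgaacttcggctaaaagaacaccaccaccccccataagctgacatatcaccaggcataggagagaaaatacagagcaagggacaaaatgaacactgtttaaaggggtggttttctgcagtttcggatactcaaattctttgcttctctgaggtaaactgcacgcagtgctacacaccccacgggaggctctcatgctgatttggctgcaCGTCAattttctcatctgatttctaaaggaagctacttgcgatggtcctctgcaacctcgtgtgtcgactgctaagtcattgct
Pde4d: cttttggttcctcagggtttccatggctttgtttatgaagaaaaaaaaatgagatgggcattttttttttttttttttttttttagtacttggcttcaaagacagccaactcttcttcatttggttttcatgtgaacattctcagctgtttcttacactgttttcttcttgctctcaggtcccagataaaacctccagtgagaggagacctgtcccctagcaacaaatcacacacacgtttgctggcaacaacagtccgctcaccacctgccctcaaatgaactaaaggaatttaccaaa
Pde8a: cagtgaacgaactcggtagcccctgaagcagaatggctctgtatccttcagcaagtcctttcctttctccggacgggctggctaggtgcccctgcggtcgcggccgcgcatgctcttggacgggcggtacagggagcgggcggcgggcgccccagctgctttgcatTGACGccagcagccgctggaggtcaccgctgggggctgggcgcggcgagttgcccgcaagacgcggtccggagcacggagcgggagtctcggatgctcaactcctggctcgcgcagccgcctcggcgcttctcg
Pde4a: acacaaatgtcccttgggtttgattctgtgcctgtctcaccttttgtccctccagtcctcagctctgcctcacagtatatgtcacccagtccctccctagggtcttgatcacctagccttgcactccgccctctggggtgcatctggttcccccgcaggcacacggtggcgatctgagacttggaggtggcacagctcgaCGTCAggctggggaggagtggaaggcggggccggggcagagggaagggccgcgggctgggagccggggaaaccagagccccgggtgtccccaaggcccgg
The full palindrome TGACGTCA, searched on both strands, was in 0 of the 13 windows and in 1.79% of all 32851 promoter windows of the same length. The core, which lies within the full palindrome, was in 3 of the 13 windows and in 20.8% of all windows. It was in 1 of 4 windows of Pde4b, in 1 of 3 windows of Pde4a and in the 1 window of Pde8a, and for Pde4b and Pde4a the window that holds it is the one shown. In Pde4b it started 34 bases before the transcript start, in Pde4a 50 bases before it and in Pde8a 84 bases before it. Of these 3 genes, Pde4b and Pde8a rose and Pde4a did not pass the test. The core was not in the 1 window each of Pde4d, Pde7b and Pde4c or in the 2 windows of Pde10a. Whether it bears on any of the changes was not tested. Transcript starts outside these windows were not searched. No windows were shown or searched for Pde3a, Pde3b and Pde7a. A match is a description of the letters only, and the counts are per gene, so transcripts from different starts cannot be told apart: Pde4d has 20 annotated transcripts, Pde10a 14 and Pde4b 13.

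The PDE4 genes encode the cAMP-specific, rolipram-sensitive enzymes that provide much of the cAMP hydrolysis in many cell types, and they divided sharply in their response. Pde4d (chr13:108449948-109953461, plus strand, GRCm38) was measured at 10.5, 11.3, 10.9 and 12.3 CPM in vehicle replicates 1 to 4 and at 237, 199.97, 218 and 219 CPM in PTH replicates 1 to 4. The lowest PTH sample was thus far above the highest vehicle sample, and the spread within each group was small. The mean went from 11.3 ± 0.796 to 218 ± 15.004 CPM, a 19.4-fold ratio, with a log2 fold change of 4.28 (SE 0.0827, 95% interval 4.10 to 4.46, edgeR adjusted p = 5.70e-12). Behind these values were 470 to 612 counts per vehicle sample and 6646 to 12133 per PTH sample. Ordered by log2 fold change, Pde4d was number 116 of the 16736 genes tested.

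Pde4b (chr4:102087543-102607259, plus strand), which encodes the PDE4 form best known from immune cells, responded almost as strongly. Vehicle replicates 1 to 4 had 5.85, 5.46, 5.65 and 6.31 CPM, and PTH replicates 1 to 4 had 119.8, 100.4, 97.5 and 101.6 CPM. The groups did not overlap, and PTH replicate 1 was the highest sample. The mean rose from 5.82 ± 0.362 to 105 ± 10.1 CPM, an 18.0-fold ratio, with a log2 fold change of 4.17 (SE 0.0908, 95% interval 3.97 to 4.37, edgeR adjusted p = 1.07e-11). Pde4b and Pde4d rose by similar amounts on the log2 scale. The ratio of their CPM values was 0.517 (range 0.482 to 0.557) in vehicle and 0.480 (range 0.448 to 0.506) in PTH samples. The ranges overlapped, which does not show that the ratio was the same in both groups.

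Because Pde4b is also a gene of leukocytes, macrophage markers were read beside it. The 12 markers, none of them at 0, summed to 1153 to 1884 CPM in vehicle and 1797 to 2272 CPM in PTH samples, with a median log2 fold change of 0.31. By the edgeR test 2 of the 12 rose, Tyrobp (0.86) and Lyz2 (0.63, on the log2 scale), and 0 fell. That is 16.7% higher, beside 23.3% of all genes tested, and 0% lower, beside 22.5%. At an unadjusted p under 0.05, 6 were higher and 0 lower, by DESeq2 3 were higher and 0 lower, and all 12 log2 differences were above 0, from 0.19 to 0.86. Ptprc, the pan-leukocyte antigen CD45, had 13.5 ± 3.60 CPM in vehicle and 16.9 ± 1.45 CPM in PTH, with a log2 difference of 0.32 that did not pass (adjusted p = 0.130). The part of these cells in the Pde4b result was not tested.

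Pde4a (chr9:21165714-21213248, plus strand), a broadly expressed PDE4 form, did not follow them. Vehicle replicates 1 to 4 had 27.98, 28.13, 32.42 and 28.02 CPM, and PTH replicates 1 to 4 had 26.63, 27.11, 27.28 and 27.96 CPM. Although every PTH sample lay below every vehicle sample, a pattern found in 21.8% of all genes tested, the gap between the nearest samples was a small fraction of the spread, and vehicle replicate 3 stood above the rest. The log2 difference was -0.10 (SE 0.0721, 95% interval -0.25 to 0.06, edgeR adjusted p = 0.297), so a rise of the size seen in any of the 8 other tested genes lay outside its interval. Without vehicle replicate 3 the log2 difference was -0.04. Per kb of exon there was more Pde4a than Pde4d or Pde4b in vehicle samples and less of it in PTH samples. The CPM ratio of Pde4d to Pde4a was 0.389 (range 0.336 to 0.440) in vehicle and 8.02 (range 7.38 to 8.89) in PTH samples. The corresponding ratio of Pde4b to Pde4a went from 0.201 to 3.85.

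Pde4c (chr8:70723720-70751186, plus strand), the fourth gene of the subfamily, was not detectable at this depth in 7 of the 8 libraries. Its counts were 0 in all 4 vehicle samples and 0, 0, 0 and 6 in PTH replicates 1 to 4. A count of 0 allows up to 3 counts, or 0.0585 to 0.0903 CPM depending on the library. This limit covers counting error only, and no fold change is given for Pde4c.

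PDE7 and PDE8 enzymes are also specific for cAMP but are insensitive to rolipram, and their genes rose more modestly. Pde7b (chr10:20398004-20725078, minus strand) had 27.1, 30.8, 32.2 and 29.9 CPM in vehicle replicates 1 to 4 and 57.2, 72.5, 65.9 and 46.7 CPM in PTH replicates 1 to 4. It varied most among the PTH samples, with a coefficient of variation of 18.4%, the highest of the 9 tested genes, yet the groups did not overlap. Its log2 fold change was 1.01 (SE 0.119, 95% interval 0.75 to 1.27, edgeR adjusted p = 2.62e-05), a 2.02-fold ratio of means.

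Pde7a (chr3:19223108-19311322, minus strand) is the paralog found in T cells and muscle. It was measured at 15.8, 16.4, 17.2 and 15.8 CPM in vehicle and at 24.0, 29.6, 27.4 and 28.7 CPM in PTH replicates 1 to 4, again with no overlap. The ratio of means was 1.68 and the log2 fold change 0.75 (SE 0.0835, edgeR adjusted p = 1.65e-05). The CPM ratio of Pde7b to Pde7a was 1.84 (range 1.72 to 1.89) in vehicle and 2.22 (range 1.62 to 2.45) in PTH samples, so it was not distinguishable between the groups by its spread. Pde7b was higher relative to Pde7a in 3 of the 4 PTH samples than in any vehicle sample, and PTH replicate 4 was the lowest of all 8.

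Pde8a (chr7:81213596-81334533, plus strand) encodes a high-affinity cAMP-specific enzyme that resists the general inhibitor IBMX. Vehicle replicates 1 to 4 had 49.0, 52.8, 54.0 and 53.0 CPM, and PTH replicates 1 to 4 had 92.5, 72.5, 76.4 and 81.6 CPM. All PTH samples were above all vehicle samples, and PTH replicate 1 was the highest. The means differed 1.55-fold, with a log2 fold change of 0.63 (SE 0.0793, 95% interval 0.46 to 0.80, edgeR adjusted p = 4.57e-05). Of the 8 genes that rose, only Pde3a had a smaller log2 fold change, and their intervals overlapped.

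Among the genes for dual-specificity enzymes, Pde10a (chr17:8525372-8986648, plus strand), best known from the striatum of the brain, had the largest response. Its vehicle replicates 1 to 4 had 9.21, 8.40, 7.62 and 8.35 CPM, and its PTH replicates 1 to 4 had 57.4, 55.2, 49.3 and 46.9 CPM. The means of 8.39 ± 0.654 and 52.2 ± 4.90 CPM differed 6.22-fold, with a log2 fold change of 2.64 (SE 0.0920, 95% interval 2.44 to 2.84, edgeR adjusted p = 4.46e-10). Pde10a was number 315 of all genes tested by log2 fold change. Its CPM was 0.749 times that of Pde4d in vehicle and 0.240 times that of Pde4d in PTH samples, so the rise of Pde4d was the larger.

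The PDE3 genes, whose products are inhibited by cyclic GMP, differed from each other in the size of their response. Pde3b (chr7:114415281-114539251, plus strand), the form that mediates the antilipolytic action of insulin in adipocytes, had 22.1, 22.9, 23.0 and 23.1 CPM in vehicle and 70.7, 53.9, 51.3 and 59.2 CPM in PTH replicates 1 to 4. Vehicle samples were almost identical, and every PTH sample lay above them. The ratio of means was 2.58 and the log2 fold change 1.37 (SE 0.0955, 95% interval 1.16 to 1.58, edgeR adjusted p = 2.46e-07). Adipocyte markers did not move together beside it: of 9 tested, 1 rose (Lipe) and 1 fell (Pparg), and the median log2 fold change was 0.15. Each is 11.1% of the 9, beside 23.3% of all genes tested that rose and 22.5% that fell. The part of adipocytes in the Pde3b result was not tested.

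Pde3a (chr6:141249269-141507448, plus strand), the form of heart, platelets and smooth muscle, had the second highest level per kb of exon among the members in vehicle samples, and the fourth highest per kb of the longest transcript. It was measured at 76.3, 65.6, 64.9 and 55.4 CPM in vehicle and at 107, 93.8, 99.0 and 83.0 CPM in PTH replicates 1 to 4. The lowest PTH sample exceeded the highest vehicle sample by less than the SD of either group. With a log2 fold change of 0.55 (SE 0.102, 95% interval 0.33 to 0.77, edgeR adjusted p = 8.73e-04), it changed least among the genes that rose. The interval did not reach that of Pde3b, and the CPM ratio of Pde3b to Pde3a was 0.353 (range 0.290 to 0.417) in vehicle and 0.616 (range 0.518 to 0.713) in PTH samples. Smooth muscle and pericyte markers summed to 1775 to 2135 CPM in vehicle and 1635 to 2135 CPM in PTH samples. Most of this was Acta2, at 1877 ± 148 CPM in vehicle and 1517 ± 145 CPM in PTH. Of the 7 markers 1 rose, Cnn1 (76.6 ± 8.27 to 336 ± 67.4 CPM, log2 fold change 2.13), and 1 fell, Acta2 (-0.31). Each is 14.3% of the 7, beside 23.3% of all genes tested that rose and 22.5% that fell.

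Small or antisense annotated genes lie within several of these loci, and a strand setting for the counting was not given in the sources used here. Exon bases were shared only in Pde3a, 741 bases with the antisense gene Gm28523 (0.763 CPM in vehicle and 0.581 CPM in PTH), and in Pde7a, 48 bases with the antisense gene Gm16093 (at most 4 counts in a library). The ribosomal protein pseudogene Rps3a3 lies within Pde4d without sharing an exon base and had 24.9 CPM in vehicle and 32.0 CPM in PTH samples.

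**Figure D2:**
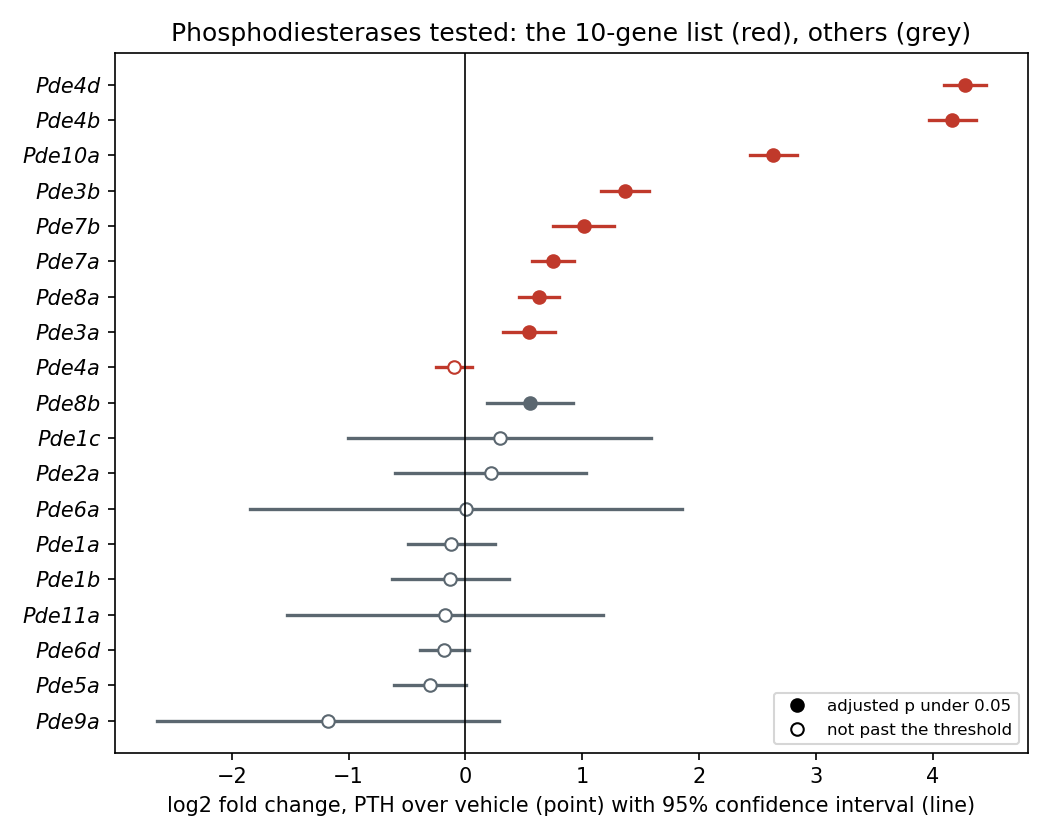
Log2 fold change of PTH over vehicle (points) with its 95% confidence interval (lines) for the 9 tested members in red and 10 other tested phosphodiesterase genes in grey. Filled points passed an adjusted p of 0.05. Of the red points, 8 are filled and lie from 0.55 to 4.28, while Pde8b at 0.55 is the single filled grey point.

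To ask whether other genes of the superfamily moved likewise, the remaining 14 phosphodiesterase genes were read from the same fit. They include cGMP-specific enzymes such as Pde5a and Pde9a, the dual-specificity Pde1, Pde2 and Pde11 enzymes, the genes with a Pde6 symbol and Pde8b, a further cAMP-specific gene. Of the 10 that were tested, 1 rose (10%, beside 23.3% of all genes tested) and 0 fell (beside 22.5%) by edgeR. Their median log2 fold change was -0.13. At an unadjusted p under 0.05, 1 of them was higher and 0 lower. Among all 14 genes DESeq2 called 2 higher and 0 lower, and 1 of the 2 was not among the 10. The gene that rose was Pde8b, the paralog of Pde8a, with 4.52 ± 0.906 CPM in vehicle and 6.64 ± 0.905 CPM in PTH (log2 fold change 0.55, SE 0.168, edgeR adjusted p = 0.0176). All 4 of its PTH samples lay above all 4 vehicle samples, a pattern found in 21.2% of all genes tested. It passed the threshold in 12 of 15 alternative fits and was lost in 3, each of which left out 1 library. There the edgeR adjusted p was 0.0514 without PTH replicate 4, 0.0504 without vehicle replicate 1 and 0.0563 without vehicle replicate 3. Pde6h, which encodes a cone photoreceptor subunit and was the other gene called by DESeq2, had 0 to 1 counts per vehicle sample and 9 to 15 per PTH sample. Pde5a, the target of sildenafil, had 12.3 ± 1.602 CPM in vehicle and 9.98 ± 1.82 CPM in PTH and did not pass (log2 difference -0.30, adjusted p = 0.106), although without PTH replicate 1 and without vehicle replicate 1 it did, with adjusted p of 0.0337 and 0.0497.

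**Figure D3:**
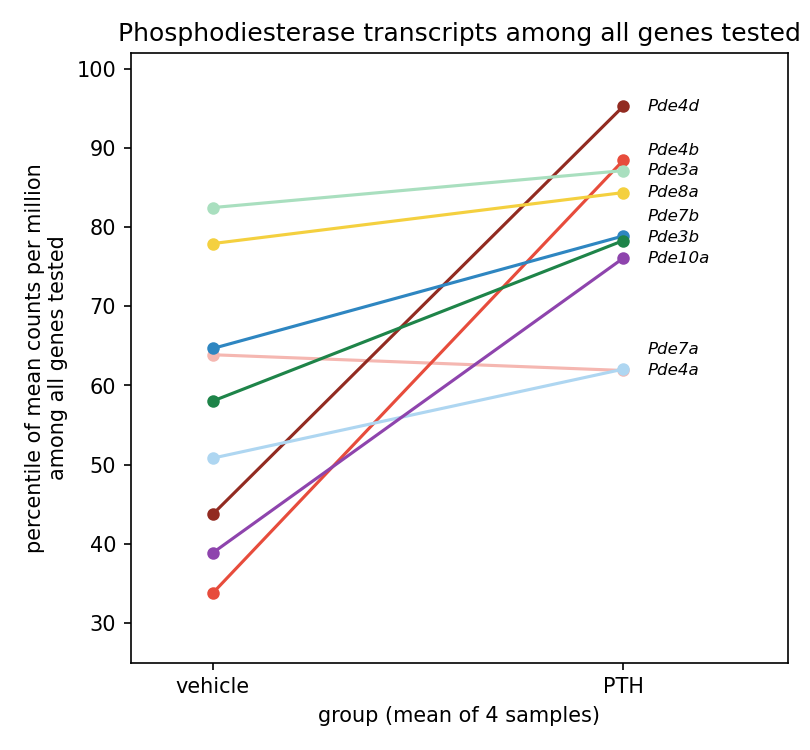
Percentile of the mean CPM of each tested member among all 16736 genes tested, in vehicle (left) and PTH (right), with 1 line per gene. Pde4d goes from 43.7 to 95.3 and Pde4b from 33.8 to 88.4, crossing every line above them except that Pde4b ends below Pde4d.

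The rises moved several members far up among all genes tested. Ranked by mean CPM, which is not corrected for gene length, Pde4d stood at percentile 43.7 in vehicle and 95.3 in PTH, Pde4b at 33.8 and 88.4, and Pde10a at 38.9 and 76.1. Pde3b moved from 58.0 to 78.3, and the others moved less. To compare genes with each other, CPM was divided by the length in kb of the union of annotated exons. On this per-length scale Pde8a had the highest level in vehicle, at 12.9 ± 0.551 CPM per kb, followed by Pde3a at 5.15 ± 0.670, Pde4a at 3.81 ± 0.286, Pde3b at 2.50 ± 0.0493, Pde7b at 2.41 ± 0.172 and Pde7a at 2.10 ± 0.0884 CPM per kb. Pde4d (0.938 ± 0.0663 CPM per kb), Pde10a (0.653 ± 0.0509) and Pde4b (0.551 ± 0.0343) came last of the 9 in that group. The ranges over samples overlapped between the neighbours Pde3b and Pde7b, Pde7b and Pde7a, and Pde10a and Pde4b.

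After PTH the order of levels per kb was Pde8a (19.96 ± 2.14 CPM per kb), Pde4d (18.2 ± 1.25), Pde4b (9.93 ± 0.961), Pde3a (7.52 ± 0.801), Pde3b (6.45 ± 0.945), Pde7b (4.87 ± 0.898), Pde10a (4.06 ± 0.381), Pde4a (3.56 ± 0.0717) and Pde7a (3.54 ± 0.316). Neighbours whose ranges overlapped were Pde8a and Pde4d, Pde3a and Pde3b, Pde3b and Pde7b, Pde7b and Pde10a, and Pde4a and Pde7a. The order depended on the length used, in both groups. Per kb of the longest annotated transcript, the vehicle order began with Pde8a at 13.7 CPM per kb, Pde4a at 6.26, Pde7b at 5.59 and Pde3a at 5.33 CPM per kb. On the same scale, Pde4d was first in PTH samples at 51.9 CPM per kb, Pde4b second at 24.4 and Pde8a the third at 21.2 CPM per kb.

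**Figure D4:**
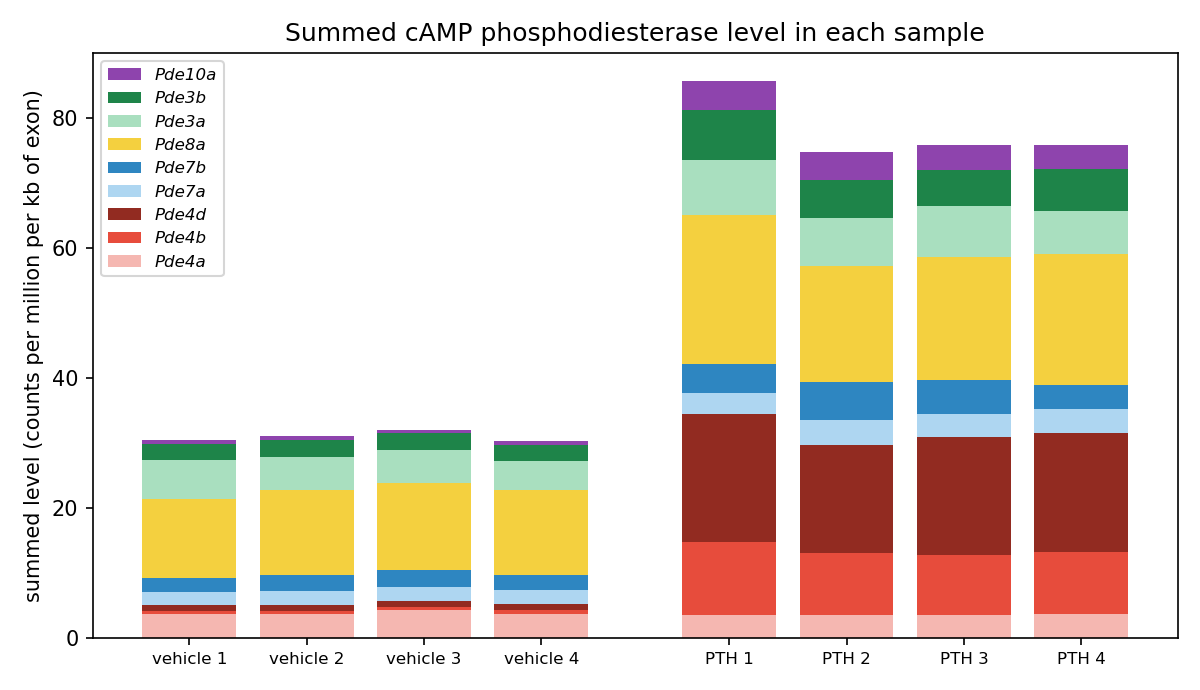
Level of each member in CPM per kb of exon, stacked for the 4 vehicle and 4 PTH samples; the height of a bar is the sum over the members, with Pde4c too low to be drawn. The 4 vehicle bars reach 30.4 to 32.1 and the 4 PTH bars 74.8 to 85.8, and the red PDE4 segments widen the most.

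Summed over the members, the level was 31.0 ± 0.766 CPM per kb in vehicle and 78.1 ± 5.14 CPM per kb in PTH, a 2.52-fold ratio, or 3.39-fold per kb of the longest transcript. PTH replicate 1 was the highest sample at 85.8 CPM per kb. The PDE4 genes made up 17.1 ± 0.576% of this sum in vehicle and 40.6 ± 0.816% in PTH, and PDE10 2.11 ± 0.205% and 5.21 ± 0.390%. The share of Pde8a went from 41.6 ± 1.46% to 25.5 ± 1.33%, although its own level rose, while that of the PDE3 genes went from 24.7 ± 2.10% to 17.9 ± 0.729% and that of the PDE7 genes from 14.6 ± 0.524% to 10.8 ± 1.76%. With the longest transcript as length, the PDE4 share went from 24.5 ± 0.657% to 57.6 ± 1.28%. These are levels of RNA, and no enzyme activity or cAMP was measured in these files.

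Genes that make, carry or read cAMP were then examined as a list of 28. Of the 27 tested, 6 rose (22.2%) and 7 fell (25.9%), shares close to the 23.3% and 22.5% of all genes tested, with a median log2 fold change of -0.10 beside -0.00 over all genes. The largest rises were in Rapgef3, which encodes EPAC1 (8.72 ± 1.07 to 15.3 ± 1.82 CPM, log2 fold change 0.81), and in the adenylyl cyclase gene Adcy4 (5.86 ± 0.514 to 10.2 ± 2.95 CPM, 0.79). The largest falls were in Rapgef4, which encodes EPAC2 (5.82 ± 1.92 to 2.98 ± 0.0902 CPM, log2 fold change -0.97), and in Pth1r, the receptor itself (136 ± 21.1 to 83.6 ± 11.6 CPM, -0.70). The other genes that rose were Adcy1, Adcy7, the protein kinase A subunit gene Prkar1a and the kinase inhibitor gene Pkig, and those that fell were Adcy6, Adcy9, Prkacb, Prkar1b and Pkia. No tested gene of this list reached a log2 fold change of 1 in either direction, and 5 of the members did, all upward. By the same cut and the adjusted p threshold, 7.36% of all genes tested were higher and 3.88% lower. Both lists were picked when earlier results were already known, and the difference between them was not tested.

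Phosphodiesterases are held at specific places in the cell by A-kinase anchoring proteins and other partners. In a list of 25 such genes, 22 were tested, 9 rose (40.9%, beside 23.3% of all genes tested) and 1 fell (4.55%, beside 22.5%), with a median log2 fold change of 0.19. The largest log2 fold change was in Akap5, 1.82, at a low level of 0.349 ± 0.141 CPM in vehicle and 1.24 ± 0.115 CPM in PTH. Among those with a mean of at least 1 CPM over both groups, Akap2 rose most (99.1 ± 12.8 to 250 ± 39.0 CPM, log2 fold change 1.34), followed by Ndel1, whose product binds the PDE4 partner DISC1 (95.5 ± 2.39 to 184 ± 11.3 CPM, 0.95). The gene that fell was Akap1, the anchor at mitochondria (27.7 ± 1.95 to 22.5 ± 1.58 CPM, -0.29). The others that rose were Akap9, Akap11, Akap12, Akap13, Gnb2l1, which encodes the PDE4D5 partner RACK1, and Pik3r5. Akap2 and Gnb2l1 shared their assembled loci with other listed genes (3 and 4 genes per locus). How counts were divided among the genes of a locus was not examined.

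Because PDE3 and PDE10 enzymes also bind cyclic GMP, 14 genes of that pathway were read as well. Of the 12 tested, 0 rose (23.3% of all genes did) and 2 fell by edgeR (16.7%, beside 22.5% of all genes), with a median log2 fold change of -0.23; 0 were higher and 4 lower at an unadjusted p under 0.05, and DESeq2 called 0 higher and 3 lower. The pair that fell encodes the subunits of soluble guanylyl cyclase, Gucy1a3 (6.97 ± 1.33 to 1.17 ± 0.406 CPM, log2 fold change -2.56) and Gucy1b3 (3.57 ± 0.897 to 1.498 ± 0.273 CPM, -1.25). In both, every PTH sample was below every vehicle sample. Gucy1a3 shared its assembled locus with another listed gene (2 genes in the locus).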

How the data were processed

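Polyadenylated RNA of 8 samples of calvarial osteoblasts, 4 given PTH and 4 given vehicle for 24 hours, was sequenced as paired reads. Per the study's methods, the authors used HISAT2 on GRCm38 and then StringTie, and deposited counts, 1 whole number per gene and sample, made by the companion script of StringTie; such counts derive from estimated transcript coverage. The read length set in that script, the strand setting and the annotation version are not given in the sources used here.

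Counts were tested with edgeR 4.0.16 (R 4.3.3): filterByExpr (minimum count 10, minimum total 15), TMM scaling, with its quasi-likelihood F-test, two-sided, for PTH against vehicle in all 8 samples, with Benjamini-Hochberg adjustment over 16736 genes and a threshold of 0.05. CPM are scaled by TMM. The standard error of a log2 fold change is its size divided by the square root of F. The fitting was tested on simulated data. Total counts of 33605610 to 56090654 limit the precision of low genes, and limits from counts cover counting error only. Lengths and positions are from GENCODE M21 and promoters from RefSeq, both on GRCm38. Alternatives were DESeq2 1.42.0, its size factors, no filter, the replicate number as a block, entries summed by symbol, halved counts, an offset for transcript length, leaving out each sample, a minimum log2 fold change of 1 and the longest transcript as length.

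All 10 members are named. Of the other phosphodiesterases those past the threshold are named with values, and Pde6h and Pde5a were added after their values were seen; of the other lists the 2 largest changes each way with a mean of at least 1 CPM over both groups are given, and Akap5 was added after its values were seen. Members, lists and markers were chosen with earlier results of these data known. The protein sequences and the promoters of Pde3a, Pde3b and Pde7a were not analysed here.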

Additional observations from a re-analysis of the deposited data

Results flagged for a closer look

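In 46 groups of 4 samples, the highest or lowest sample was compared with its nearest neighbour by Dixon's criterion, which chance alone passes in about 1 in 20 groups; 3 values passed. Pde4a in vehicle replicate 3 was at 32.4 CPM, with the nearest vehicle sample at 28.1 CPM. The summed level of Pde3a and Pde3b in PTH replicate 1 was 16.2 CPM per kb, with the next PTH sample at 13.4 CPM per kb. The summed level of all members in PTH replicate 1, the most deeply sequenced library, was 85.8 CPM per kb, with the next PTH sample at 75.9 CPM per kb.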

How the results depend on the processing

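The 8 members that rose passed the threshold in the same direction in all 15 alternative fits, and Pde4a in 0 of them. Across these fits the log2 fold change was 4.23 to 4.33 for Pde4d, 4.10 to 4.21 for Pde4b, 2.59 to 2.68 for Pde10a, 1.26 to 1.42 for Pde3b, 0.92 to 1.12 for Pde7b, 0.71 to 0.81 for Pde7a, 0.56 to 0.69 for Pde8a, 0.47 to 0.62 for Pde3a and -0.13 to -0.04 for Pde4a. A minimum log2 fold change of 1 left 1232 genes higher and 650 lower, in place of 3907 and 3762, and 5 members and 0 other phosphodiesterases higher. DESeq2 called 2 other phosphodiesterases higher, and so did the fit with no filter on low counts, since more low genes were then tested. Leaving out 1 sample at a time gave 8 members higher and 0 lower each time, 0 to 2 other phosphodiesterases higher and 0 to 1 lower, 3412 to 4119 genes higher and 3259 to 3955 lower. Samples with the same replicate number did not deviate together (correlations of -0.041 to 0.027), and the fit with the replicate block gave 8 members, 1 other phosphodiesterase and 3571 genes higher, and 3432 genes lower. Pde4c, Pde6b, Pde6c, Pde6g and Pde6h had too few counts for the main test.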
